A study of Mus musculus with 9 samples.

Results

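Chromatin accessibility was described at 4 mouse genes that encode costimulatory ligands, Tnfsf9, Icosl, Cd80 and Cd86, in B16 melanoma cells. The genes were selected by function, and their peaks were chosen by having been called in a deposited list, inside the gene body or within 20 kb of it. The choice was made with earlier results of these libraries known. Presence, fold and rank of the peaks are therefore given as descriptions, with no test. The rule found 39 of the 137541 deposited peaks, which merged into 6 of 32651 sites. Of the 4 genes, 3 had at least 1 peak, among 21887 protein-coding genes placed on chromosomes 1 to 19, X and Y.

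T cells need a costimulatory signal beside that of the antigen receptor, and ligands on the presenting cell give it. CD80 and CD86 are the B7 proteins of dendritic cells, macrophages and activated B cells, and bind both CD28, which activates, and CTLA-4, which inhibits. ICOSL, another member of the B7 family, binds ICOS and is also made by cells outside the blood lineages. TNFSF9 (4-1BBL) belongs to the tumour necrosis factor family and binds TNFRSF9 (4-1BB) on activated T cells. Tumour cells that carry such ligands can stimulate T cells, and most tumour lines lack part of the set.

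The assay was ATAC-seq, in which a transposase inserts adaptors into open DNA. Tumour cells were injected into mice, and sorted from tumours taken on day 15. The groups held 3 libraries each: B16 with no treatment (B16_untreated), B16 given interferon gamma (IFNy in the labels) before injection (B16_IFNg, 2 weeks for replicates 1 and 2 and 3 weeks for replicate 3), and Res499, the untreated resistant strain of the labels, known as a B16 derivative that withstands checkpoint blockade. All libraries thus come from 1 melanoma line and its derivative grown in mice, and the labels do not say whether replicates came from separate mice, how the cells were sorted or whether Res499 is 1 clone.

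List length was lowest in Res499 (9221 to 15396 peaks), against 11183 to 16240 peaks for B16_IFNg and 15045 to 25374 for B16_untreated. Relative depth, recovered from the lists, was 7.59 to 11.1 fragments per kb of genome. By the shortest peak called, 4 libraries were classed as having long fragments (at least 150 bp), namely replicate 3 of each group and B16_untreated replicate 1. The other 5 were classed as having short ones. Fragment length itself was not measured, and the settings of the caller are not given. Of 9 melanocyte markers, Mitf, Dct and Pmel had a peak within 1 kb of an annotated gene end in all 9 libraries, Sox10 and Mlana in 1 library each and Gpr143 in none. Such peaks stood at 6 to 7 of the 9 markers in a B16_untreated library, at 5 in each B16_IFNg library and at 3 to 5 in a Res499 library. The share of all coding genes with such a peak also differed, at 42.1% to 48.1%, 35.8% to 43.7% and 32.5% to 42.4% in libraries of these groups. Ptprc, the pan-leukocyte gene, had no such peak in any library, nor had most markers of leukocytes, fibroblasts and endothelial cells. The exceptions were Coro1a in 1 library, Cd4 in 3, Spi1 in 4 and Col1a1 in 7.

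Sequences were available for the promoters of Icosl and Cd80, from RefSeq on GRCm38.p6, and are shown because a peak covered the first in 7 libraries and the second in none. Each runs, on the plus strand, from 250 bases before to 50 after the start that RefSeq gives, at chr10:78069118-78069417 for Icosl (start 78069368) and chr16:38458683-38458982 for Cd80 (start 38458933, inside the annotated gene body). Capitals mark matches to any of 12 motifs searched on both strands.
Icosl: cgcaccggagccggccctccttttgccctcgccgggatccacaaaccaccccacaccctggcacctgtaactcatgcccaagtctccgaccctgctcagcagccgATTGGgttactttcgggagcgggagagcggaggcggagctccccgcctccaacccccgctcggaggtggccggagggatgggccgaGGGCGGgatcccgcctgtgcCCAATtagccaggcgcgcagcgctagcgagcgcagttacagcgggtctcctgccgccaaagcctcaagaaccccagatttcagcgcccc
Cd80: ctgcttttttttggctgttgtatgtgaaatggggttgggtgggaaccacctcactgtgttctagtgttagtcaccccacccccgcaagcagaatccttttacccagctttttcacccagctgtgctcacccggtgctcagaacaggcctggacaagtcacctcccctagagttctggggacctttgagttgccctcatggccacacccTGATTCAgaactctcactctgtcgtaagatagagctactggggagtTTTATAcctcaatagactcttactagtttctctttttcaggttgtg
The motifs were GAS (TTCNNNGAA), an ISRE core (TTCNNTTTC), NF-kB (GGNNTTTCC), AP-1 (TGANTCA), CRE (TGACGTCA), the E-boxes CACGTG and CATGTG, ETS (CCGGAAGT), PU.1 (GAGGAAGT), the GC box (GGGCGG), the CCAAT box (CCAAT) and the TATA box (TATAAA).

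Positions are counted from the start that RefSeq gives for each promoter, with that base as 1. The Icosl promoter held 1 GC box at position -59 and CCAAT boxes at -39 and, on the reverse strand, at -145. GC boxes occurred in 35.7% of all 32851 promoters of the same length and CCAAT boxes in 37.4%. In the Cd80 promoter an AP-1 match began at position -42 and a reverse-strand TATA match at 5. AP-1 was found in 7.81% of all promoters and the TATA box in 13.6%. Neither promoter held the letters of the GAS (in 8.3% of all promoters), the ISRE core (8.56%) or the NF-kB motif (5.82%), which says only that they are not in these windows. None of the matches overlapped another.

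The base composition of these promoters differed widely. Icosl had 68.0% G and C and 26 CpG dinucleotides, and Cd80 had 49.7% and 3, against medians of 52.7% and 7 over all promoters. Of the 5543 promoters with at least as many CpGs as Icosl, 84% were covered by a peak in at least 1 library and 68.6% in 7 or more. Of the 10310 with as few as Cd80 or fewer, 2.05% were covered in at least 1 library. Each of these 2 promoters thus had the peak status held by most promoters of its CpG class.

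**Figure D1:**
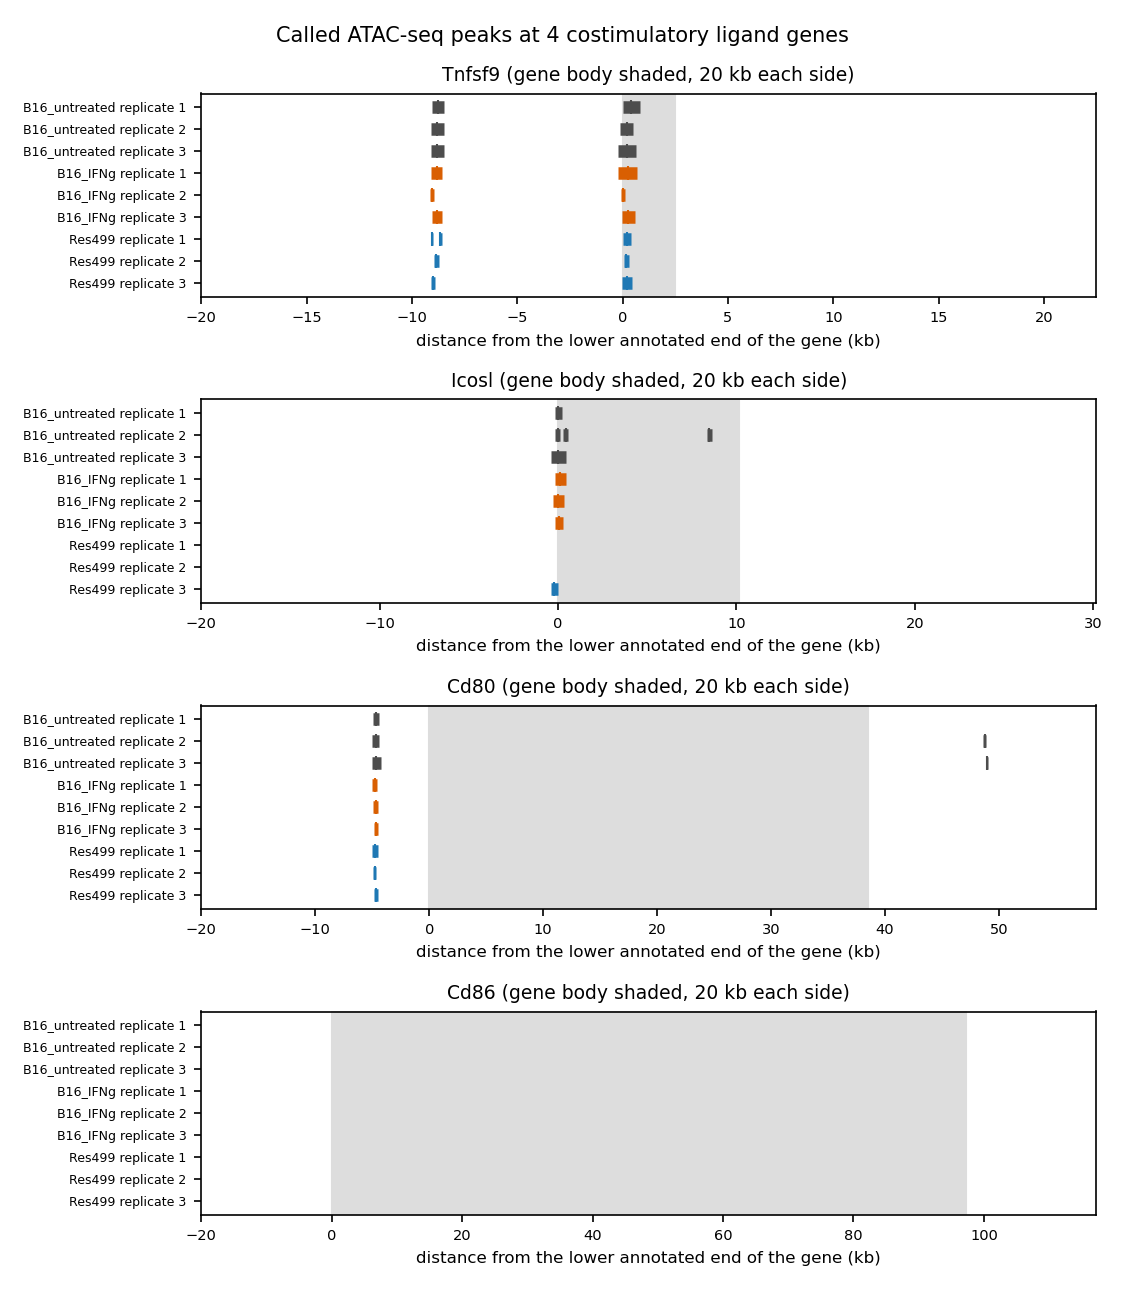
Positions of all peaks called at the 4 genes. The x axis is the distance in kb from the lower annotated end of each gene, grey shading is the gene body, each row is 1 library coloured by group, and a bar spans each peak, with a thin tick at its centre. Peaks stood at and 9 kb below Tnfsf9 in all 9 libraries and at the Icosl start in 7, while the gene bodies of Cd80 and Cd86 held none.

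Tnfsf9, the 4-1BB ligand gene, was accessible in all 9 libraries. It lies at chromosome 17, 57105287 to 57107758 (GRCm38), and its lower annotated end carried a site at 57105076 to 57106100. This site also covers the upper end of Gm11110, a long non-coding RNA gene that overlaps Tnfsf9, so the peak cannot be given to either gene alone. The table used gives no exons.

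Fold enrichment is the caller's ratio of the summit to the local background of the same library after 1 fragment is added to each, which lowers the fold most where counts are low. At the Tnfsf9 end it was 4.66, 7.59 and 8.45 in B16_untreated replicates 1 to 3, 8.35, 7.14 and 5.0 in B16_IFNg, with 6.91, 5.28 and 6.18 in Res499. The means were 6.90 ± 1.99 (SD, n = 3), 6.83 ± 1.70 (SD, n = 3) and 6.12 ± 0.818 (SD, n = 3), and the 3 groups overlapped. The median fold of all peaks in a list was 5.23 to 6.90, so Tnfsf9 was an ordinary peak for these lists.

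Rank by significance placed the Tnfsf9 end at 11417 of 15045, 10399 of 25374 and 5613 of 20139 in B16_untreated. It stood at 4006 of 16240, 5503 of 13175 and 8530 of 11183 in B16_IFNg, and at 5241 of 15396, 6929 of 9221 and 4123 of 11768 in Res499. As a share of its list the rank ran from 24.7% to 76.3%, and every group held 1 library near 75% and others between 24.7% and 41.8%. Lists differ in length, so these ranks cannot show whether the groups differ.

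The fold and the p-value of a peak together give the whole number of fragments at its summit. At the Tnfsf9 end this was 19, 19 and 29 fragments in B16_untreated, 20, 12 and 13 in B16_IFNg, with 17, 10 and 22 in Res499. The lowest, 10 fragments, has an exact 95% Poisson interval of 4.80 to 18.4 and the highest, 29, one of 19.4 to 41.6. Such intervals cover counting error only. Over the lowest background of each library the heights were 9.49 to 24.6 times in B16_untreated, 9.23 to 19.7 in B16_IFNg and 9.22 to 15.7 in Res499. The low ends of the 3 ranges were nearly equal, and B16_untreated reached highest, in replicate 2. Set against the median summit of its list, the height was 0.76 to 1.32 times in B16_untreated, 0.722 to 1.33 in B16_IFNg and 0.714 to 1.13 in Res499.

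A second site near Tnfsf9 lay 8492 bp below the gene, at chromosome 17, 57096158 to 57096795. It is inside Gm11110 and begins 38 bp above the lower end of Gm46589, another long non-coding RNA gene, whose start in RefSeq is at 57096120 on the plus strand. The summits lay 75 to 439 bp after that start, with a median of 174 bp. This site too was called in all 9 libraries.

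The fold at the distal site was 5.09, 9.19 and 8.52 in B16_untreated, 7.38, 5.50 and 6.05 in B16_IFNg, with 5.12, 4.11 and 5.15 in Res499. The group means were 7.60 ± 2.2 (SD, n = 3), 6.31 ± 0.969 (SD, n = 3) and 4.80 ± 0.594 (SD, n = 3). All 3 Res499 libraries were below every B16_IFNg library, and B16_untreated replicate 1 lay among the Res499 values. The median fold of all peaks moved in the same way, at 5.78, 5.76 and 5.23 in the Res499 lists against 6.43, 6.31 and 5.81 in those of B16_IFNg. As a ratio of summit height to the median summit of its list, the distal site had 0.743 ± 0.151 (SD, n = 3) in Res499 and 0.980 ± 0.202 (SD, n = 3) in B16_IFNg, with overlapping values. The part of overall signal in this difference was not tested. The share of all sites with this order of groups is not given here, so the order cannot be called particular to this site. Res499 replicate 1 had 2 short peaks here, 122 and 155 bp wide, where the other libraries had 1.

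In Res499 replicate 2 the distal peak was close to the end of its list, at rank 9132 of 9221, with 8 fragments at the summit (exact 95% Poisson interval 3.45 to 15.8). As a share of its list the best rank was 22.1% (4457 of 20139) in B16_untreated replicate 3, and the range was 22.1% to 77.6% in B16_untreated, 37.1% to 72.6% in B16_IFNg and 60.1% to 99.0% in Res499. Summits held 16, 21 and 34 fragments in B16_untreated, 17, 9 and 19 in B16_IFNg, with 12, 8 and 18 in Res499. Over the library background that is 7.99 to 27.1, 12.1 to 16.7 and 7.38 to 11.1 times. Here the highest Res499 value was below the lowest B16_IFNg value but above the lowest of B16_untreated. For this measure too, the share of all sites with that order is not given.

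**Figure D2:**
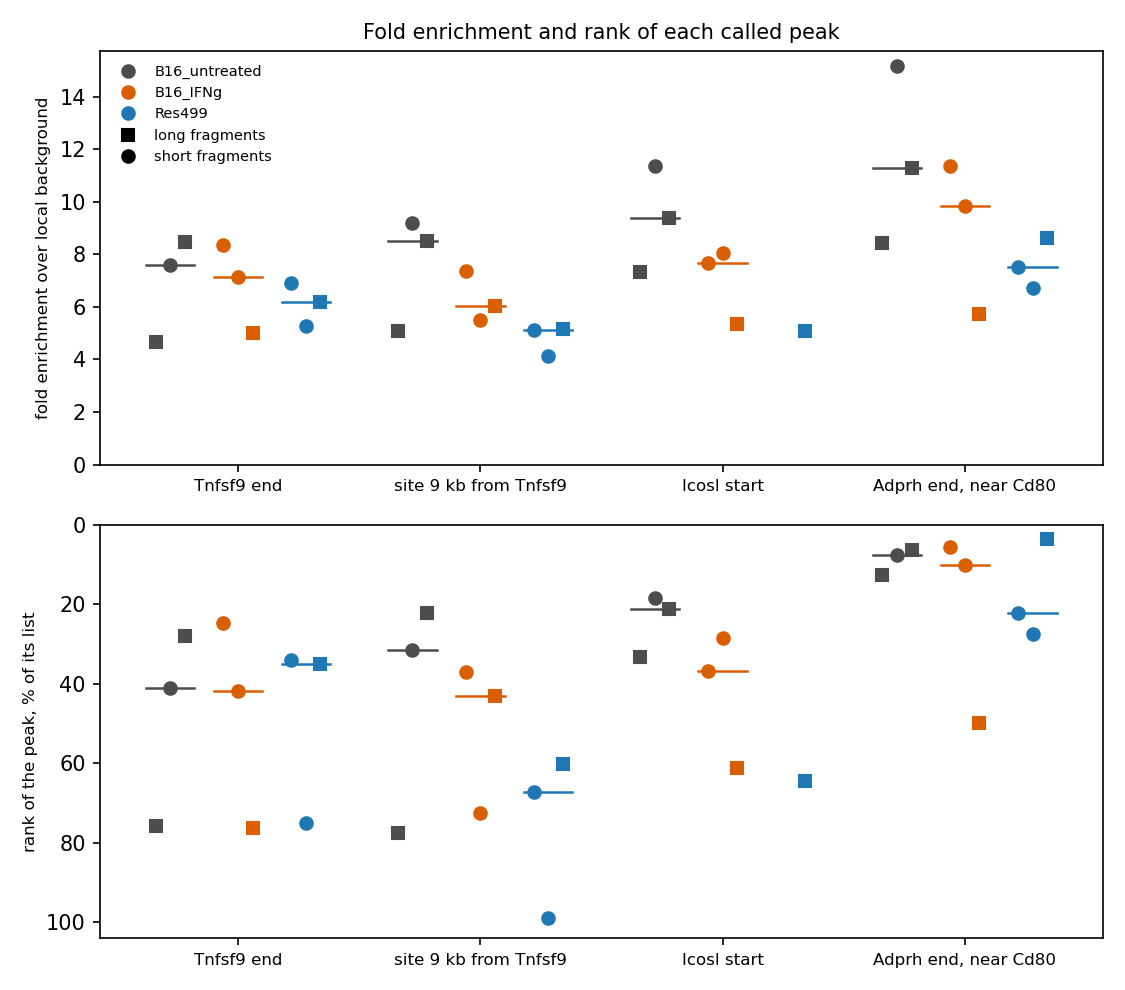
Fold enrichment (upper panel) and rank as a percentage of the list, strongest at the top (lower panel), of the best peak of each library at 4 sites. Colours are groups, squares and circles are libraries with long and short fragments, and lines are medians of groups with more than 1 value. The groups overlap at the Tnfsf9 end, and Res499 has 1 value, a fold of 5.09, at the Icosl start.

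Icosl, the ICOS ligand gene, had a called peak at its start in all 6 B16 libraries and in 1 of 3 Res499 libraries. The gene lies at chromosome 10, 78069368 to 78079525, on the plus strand, and the site spans 78068964 to 78069940, over the promoter printed above and the first bases of the gene. The site also lies inside the long non-coding RNA gene Gm51775, which had a peak within 1 kb of an end in 6 libraries. It covers neither end of Gm51775, but position alone cannot give the peak to Icosl only. Summits lay at -145 to 149 bp from the start, with a median of -90 bp.

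The fold at the Icosl start was 7.34, 11.4 and 9.36 in B16_untreated and 7.68, 8.07 and 5.36 in B16_IFNg. In Res499 it was 5.09 in replicate 3, with no peak called in replicates 1 and 2. B16_untreated had a mean of 9.36 ± 2.02 (SD, n = 3) and B16_IFNg one of 7.03 ± 1.46 (SD, n = 3), with overlapping values. The single Res499 value was lower than all 6 others.

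By rank the Icosl peak stood at 4991 of 15045, 4639 of 25374 and 4263 of 20139 in B16_untreated, within the best 33.2% of each list. In B16_IFNg it stood at 5966 of 16240, 3759 of 13175 and 6852 of 11183, and in Res499 replicate 3 at 7593 of 11768. The list of Res499 replicate 1 was longer, with 15396 peaks, than 3 of the 6 B16 lists that held the Icosl peak, whereas that of Res499 replicate 2 was the shortest of all. Icosl was in the best 9214 peaks of the same 7 libraries in which it had a peak at all.

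Summit fragments at Icosl were 27, 29 and 32 in B16_untreated, 16, 14 and 16 in B16_IFNg and 17 in Res499 replicate 3. The 95% exact Poisson intervals were 17.8 to 39.3 for the lowest B16_untreated count and 9.90 to 27.2 for Res499 replicate 3, and overlap. A peak at the lowest background needed 7 fragments to be called in Res499 replicate 1 and 8 in replicate 2, or 10 and 11 where the local background was 2 times as high. The local background at Icosl was 1.16 to 2.12 times the library's lowest in the libraries with a peak. A site under these counts, or narrower than the shortest peak allowed, would be missing from the list. Lower accessibility and none therefore cannot be told apart in Res499 replicates 1 and 2, nor, in bulk samples, can fewer open cells and less opening per cell.

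Both Res499 libraries without the peak were classed as having short fragments, by the shortest peak called. Among libraries with long fragments the Icosl summit was 13.5 and 20.2 times the library background in B16_untreated, 11.4 times in B16_IFNg and 8.97 times in Res499. With short fragments it was 37.5 times in B16_untreated and 15.7 and 18.8 times in B16_IFNg, and Res499 had no peak. The least height called there was 6.48 and 7.38 times at the lowest background, and 9.25 and 10.1 times would be needed where the local background was 2 times as high. Several combinations of group and fragment length hold 1 library, and short-fragment Res499 has no measured height. The median summit of all peaks was 12.5, 20.7 and 13.9 times the background in B16_untreated, 14.7, 16.1 and 12.8 in B16_IFNg, with 13.9, 12.9 and 11.1 in Res499. Set against that median, the Icosl summit was 1.08, 1.81 and 1.45 times in B16_untreated, 1.07, 1.17 and 0.889 times in B16_IFNg and 0.810 times in Res499 replicate 3. The medians of Res499 replicates 1 and 2 (13.9 and 12.9) were above those of B16_untreated replicate 1 and B16_IFNg replicate 3 (12.5 and 12.8), which had the peak. They were below those of the B16 libraries with short fragments (20.7, 14.7 and 16.1). The part of overall signal in the missing peaks was not tested.

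**Figure D3:**
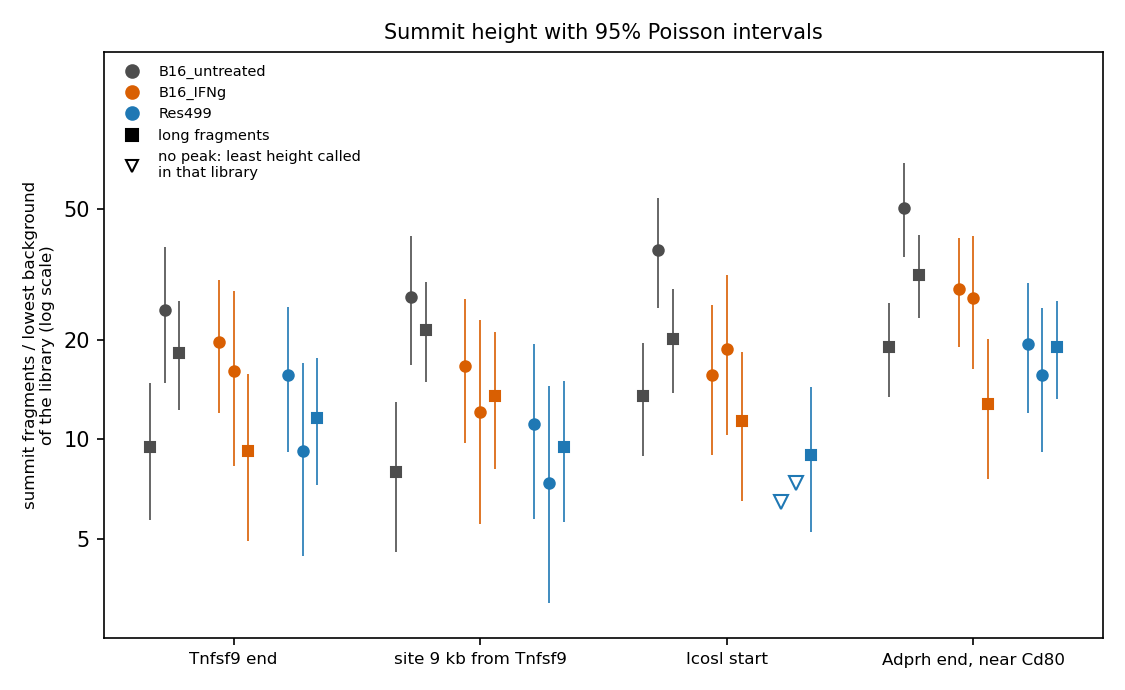
Fragments at the summit divided by the lowest background of the library (log scale), for the best peak of each library at 4 sites. Bars are exact 95% Poisson intervals, circles and squares are libraries with short and long fragments, and open triangles show the least height called, at the lowest background, in a library with no peak. At the Icosl start the 2 triangles of Res499 stand at 6.48 and 7.38, beside a called value of 8.97, and would stand at 9.25 and 10.1 with 2 times that background.

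The same pattern was counted over all coding genes. Of 7012 genes with an end peak in all 6 B16 libraries, 239 (3.41%) had one in at most 1 Res499 library, as Icosl did. In equal-length lists, the 9214 most significant peaks of each library on chromosomes 1 to 19, X and Y, the share was 2.12% (105 of 4955). Of the 7012 genes, 1.87% lacked the peak in Res499 replicate 1, 14.1% in replicate 2 and 5.60% in replicate 3, and 1.01% lacked it in replicates 1 and 2 together, again like Icosl. The exact set of 7 libraries of Icosl was shared by 41 coding genes in all, Icosl included. Since Icosl was taken up with its peaks known, these shares describe its place and test nothing. Col1a1, a collagen gene of fibroblasts, also had an end peak in these 7 libraries, whereas Col1a2, Pdgfra and Dcn, the other 3 fibroblast markers, had none in any library. The part of fibroblasts in the Icosl pattern was not tested. Tyr, the melanin enzyme tyrosinase, also had an end peak in all 6 B16 libraries and 1 Res499 library, but its Res499 library was replicate 2. These counts for Col1a1 and Tyr are from the full lists. In equal-length lists Tyr had an end peak in 1 library of each group. Col1a1 then had one in 0 B16_untreated, 2 B16_IFNg and 1 Res499 libraries, whereas Icosl kept 3, 3 and 1.

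A weaker site lay inside Icosl, 1532 bp from its upper end, at chromosome 10, 78077695 to 78077993. It was called in B16_untreated replicate 2 only, the longest list, at a fold of 5.64 and rank 18267 of 25374. That library also had an added peak near the Icosl start, with its summit at 371 bp and a fold of 5.29.

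Cd80, which encodes B7-1, had no peak in its gene body or within 1 kb of either end. The gene spans chromosome 16, 38457430 to 38495958. A site in its window, at 38452375 to 38453214, was called in all 9 libraries, 4216 bp below Cd80. It covers the upper end of Adprh, which encodes an ADP-ribosylarginine hydrolase, so by position it belongs to the neighbour.

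The Adprh site had the highest fold of the 6 sites in 8 of 9 libraries, all but B16_IFNg replicate 3. Its fold was 8.43, 15.2 and 11.3 in B16_untreated, 11.4, 9.83 and 5.75 in B16_IFNg, with 7.5, 6.71 and 8.63 in Res499. The group means were 11.6 ± 3.38 (SD, n = 3), 8.98 ± 2.90 (SD, n = 3) and 7.61 ± 0.961 (SD, n = 3), with overlap between all groups. Ranks ran from 413 of 11768 in Res499 replicate 3 to 5573 of 11183 in B16_IFNg replicate 3. Summits held 38, 39 and 50 fragments in B16_untreated, 29, 20 and 18 in B16_IFNg, with 21, 17 and 36 in Res499. Adprh thus kept its peak in Res499 replicates 1 and 2, at ranks 3416 of 15396 and 2532 of 9221, where Icosl had none.

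Beyond Cd80, 10098 bp above its upper end and inside Timmdc1, a site at chromosome 16, 38506056 to 38506485 was called in B16_untreated replicates 2 and 3. Its fold was 4.92 and 4.64, from 9 and 11 fragments, at ranks 21608 of 25374 and 17853 of 20139. Both ranks are past the full length of every B16_IFNg and Res499 list, so that absence there says nothing of a difference.

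Cd86, which encodes B7-2, had no peak at all. Its gene body spans 97203 bp, from 36568956 to 36666158 on chromosome 16, and neither it nor the 20 kb on each side held a peak in any of the 9 libraries. The nearest peak was 151103 bp away in B16_untreated replicate 3, and over libraries the nearest lay 151103 to 162118 bp away. Of 1340 coding genes within a ratio of 0.8 of its length, shorter or longer, 13.7% had no peak in the same kind of window, as had 27.3% of all coding genes. These comparison sets were chosen after the absence at Cd86 was seen. The neighbouring calcium-sensing receptor gene Casr, 6815 bp away, had no end peak either.

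Outside the 20 kb limit the nearest further sites were 25640 bp from Icosl, called in 1 Res499 library at a fold of 4.65, 26279 bp from Cd80, at the Timmdc1 end in all 9 libraries at folds of 7.46 to 14.9, and 44521 bp from Tnfsf9, at the Slc25a23 end in all 9. The outermost sites inside it were those 10098 bp from Cd80 and 8492 bp from Tnfsf9.

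Because list lengths differ, gained and lost sites were counted in the equal-length lists, which held 4 of the 6 sites. Called in every B16_IFNg library and in no B16_untreated library (gained) were 0 of these 4, and the reverse (lost) held for 0, against 0.59% and 0.906% of the 9495 regions called in at least 3 of these 6 libraries. For Res499 against B16_untreated the counts were again 0 and 0, with 0.919% and 1.52% in the background. For Res499 against B16_IFNg they were 0 and 0, with 0.627% and 0.875%. With so few sites and shares this low, counts of 0 carry little information.

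A lenient rule let 1 library of a group depart, with a difference of at least 2 libraries, and its background was the regions called in at least 2 of the 6 libraries compared. The Tnfsf9 end was then gained in B16_IFNg (background 5.8% gained and 6.82% lost) and in Res499 (6.75% gained) against B16_untreated, being called in 3 B16_IFNg, 3 Res499 and 1 B16_untreated libraries. Icosl was lost in Res499 against B16_untreated (background 8.93% lost) and against B16_IFNg (6.98% lost and 5.84% gained). The Tnfsf9 count rested on the length of the list. Among the best 11181 peaks it was called in 2 B16_untreated libraries, and in the full lists in 3, so that it met neither rule. Icosl was called in the 6 B16 libraries and Res499 replicate 3 at each of these 3 lengths, and among the best 4607 peaks in 1 B16_untreated, 1 B16_IFNg and 0 Res499 libraries.

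Most other ligand genes of the costimulatory system had no called end peak. Of 20 further ligand and adhesion genes, 14 had no peak within 1 kb of an end in any library, against 49.4% of all coding genes. Among these 14 were Tnfsf4 (the OX40 ligand), Cd70 (the ligand of CD27), Cd40 and Cd48. Nectin2 had an end peak in all 9 libraries. Pvr, like Nectin2 a ligand of the activating receptor DNAM-1 and the inhibitory TIGIT, had one in 3 B16_untreated, 2 B16_IFNg and 2 Res499 libraries. Tnfsf13 (APRIL) had one in all 6 B16 libraries and 1 of Res499, but its Res499 library was replicate 1, not replicate 3 as for Icosl. In equal-length lists Tnfsf13 had one in 2 B16_untreated, 2 B16_IFNg and 0 Res499 libraries. Icam1, the ligand of LFA-1, had one in 1 B16_untreated and 1 Res499 library. Peaks near a gene end can belong to a close neighbour, as at Adprh.

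Genes for the T cell receptors of these ligands had no end peak in 13 of 14 cases, against 49.4% of all coding genes. Cd28, Ctla4, Icos and Tnfrsf9 were among the 13. Cd27 had an end peak in 1 B16_untreated library. Of 12 regulators of B7 and TNF ligand genes, 9 had an end peak in at least 1 library, against 50.6% of all coding genes. The NF-kB genes Rel and Relb, Irf1 and Traf2 had one in all 9 libraries, as had 26.4% of coding genes, Nfkb1 in 8 and Rela in 7. Traf3, an inhibitor of non-canonical NF-kB signalling, had one in 3 B16_untreated, 1 B16_IFNg and 1 Res499 library. Irf4, Irf8 and Ciita, the transactivator of MHC class II genes, had none.

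Markers of leukocytes, which include the cells that normally carry CD80 and CD86, had few end peaks. All 4 B cell markers and 9 of 10 myeloid and dendritic markers had no end peak in any library, against 49.4% of all coding genes. The same held for 6 of 7 T cell markers and 2 of 3 general leukocyte markers. The exceptions were Spi1 in 4 libraries, Cd4 in 3 and Coro1a in 1. Per library the counts of such peaks were 0 or 1 for each of these lists in every group. The 4 endothelial markers had none. Beside a share of 49.4%, lists of 3 or 4 genes say little.

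**Figure D4:**
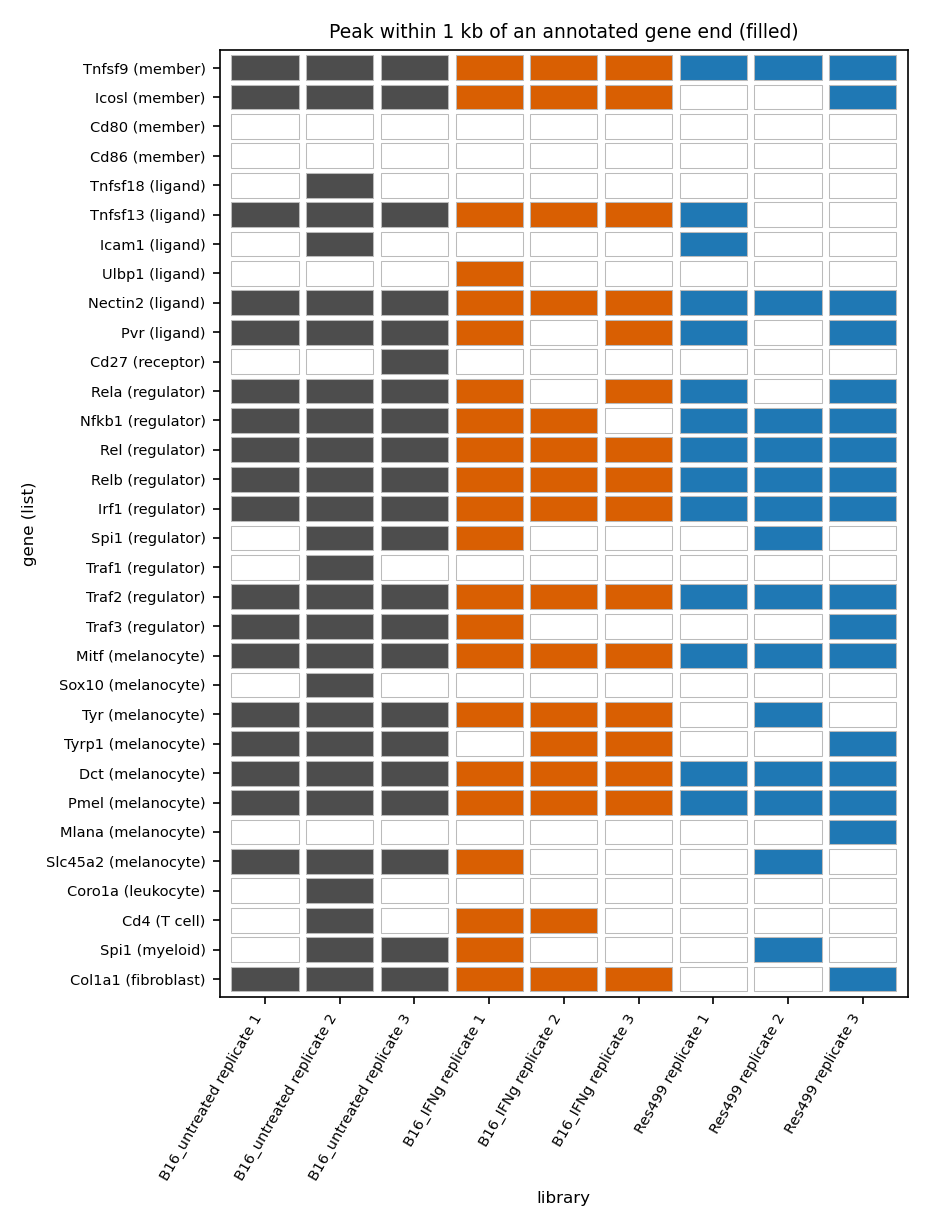
Genes with a peak within 1 kb of an annotated end in each of the 9 libraries (columns), filled in the colour of the group, for the 4 members and for the genes of the other lists with at least 1 such peak. Tnfsf9 is filled in 9 libraries, Icosl in 7, and Cd80 and Cd86 in none.

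The coding genes most like a member were sought by the percentile of the end peak in each list, correlated over the 9 libraries. For Tnfsf9 they were Efr3a (Pearson's r = 0.948), Ogfrl1 (0.938) and Tnpo3 (0.923) among 5770 genes, 0.277% of which were over 0.9. For Icosl they were St3gal4 (Pearson's r = 0.969), B3galt1 (0.963) and Oser1 (0.957) among 6618 genes, 0.74% of which were over 0.9. A library with no peak counted as percentile 0, as for Icosl in 2 of the 9. St3gal4 had an end peak in 7 libraries, 1 of them of Res499, whereas B3galt1 and Oser1 had one in all 9. All points share list length and depth, and the highest of so many correlations over 9 points are high by selection.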

How the data were processed

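Per the submitters' processing notes, the authors used CASAVA, cutadapt 1.9, Bowtie2 2.2.4 and MACS2 with the build GRCm38 (mm10). Peak-calling settings and any shift of reads to the cut site are not given in the sources used here, and an unshifted read would move edges by a few bases. The deposited files list peaks called per library, with a score, fold (a ratio) at the summit, and −log10 p and −log10 q, all by the authors' caller. The score was not used. These values serve here to describe and rank peaks within a list.

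With Python 3.11.15, pandas 2.3.3 and SciPy 1.17.1, summit fragments and local background were solved from fold and −log10 p. All peaks with a −log10 p under 200 matched within 0.01 (100% in each library), and the solver and the calling were tested on simulated data. Relative depth was taken as lowest background over shortest peak width. Touching peaks were merged. Gene positions and promoters came from RefSeq, GRCm38.p6. Members, gene lists and rules were chosen with earlier results of these data known. In the list of regulators 1 gene is not reported here. The rule for named genes took the members, the nearest coding gene of each site, up to 10 genes with end peaks per list and the 3 most alike genes.

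No statistical test was run across genes or samples, since the members were chosen with their peaks in view and 3 libraries against 3 cannot go below an exact p of 0.1. Differences are given as values with the spread between libraries, which may be technical.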

Additional observations from a re-analysis of the deposited data

How the results depend on the processing

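No paired analysis was possible because the results come from no test, and nothing in the labels ties equal replicate numbers to a shared mouse, batch or day. The number of sites in the 20 kb windows, 6, was 11 with windows of 50 kb. The count of libraries at Cd80, 9 with the 20 kb window, was 0 within 1 kb of an end. Under the lenient rule 1 site was gained in B16_IFNg (Tnfsf9), 1 gained in Res499 (Tnfsf9) and 1 lost in Res499 (Icosl) against B16_untreated, and 1 lost in Res499 against B16_IFNg (Icosl), where the strict rule gave 0 each. When a peak had to cover 50% of its region, 1 site was lost in B16_IFNg against B16_untreated (the Adprh site) and 1 in Res499 against B16_IFNg (Icosl). The Adprh site still had a peak in every B16_IFNg library, 354 to 411 bp wide in a site of 840 bp. The Icosl peak of Res499 replicate 3, 371 bp wide, also fell short of that cover. Leaving out each library in turn gave 0 to 1 gained sites for B16_IFNg and for Res499 against B16_untreated, with the 1, the Tnfsf9 end, seen without B16_untreated replicate 3. It gave 0 to 1 lost sites in Res499 against B16_untreated and against B16_IFNg, with the 1, Icosl, seen without Res499 replicate 3. Of 100 alternative values 88 were the same as the main one or within 1.5 times of it. These included lists of 11181 peaks without Res499 replicate 2, an alternative added after seeing the data. Most of the 100 were counts of gained or lost sites with a main value of 0, where staying at 0 carries little information. Depth limits the weak sites, since 6 to 10 summit fragments were the fewest that gave a peak.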
